A study of Mus musculus with 2 samples.

Results

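Binding of the transcription factor USF1 was examined at the Rab GTPase genes of CH12.LX cells. Members were all protein-coding genes whose symbol is Rab followed by a number and at most 1 letter, which gave 59 of 21486 protein-coding genes. Compound names such as Rabgap1 or Rab11fip1 were not members. CH12.LX, derived from the mouse strain B10.H-2aH-4bp/Wts, is an established line of B-cell lymphoma, and it was profiled by ChIP-seq with an antibody to USF1 in 1 group of 2 biological replicates, with no treatment or genotype contrast in the labels. Both replicates come from the same line, so the spread between them covers cultures and libraries of that line and no other cells.

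Rab proteins are small GTPases that mark the membranes of the cell. In the GTP-bound form each recruits effectors that tether, move or fuse vesicles; exchange factors load GTP, and GTPase-activating proteins end the signal. Rab5 proteins define early endosomes and Rab7 late endosomes and lysosomes, while Rab1, Rab2 and Rab6 act between the endoplasmic reticulum and the Golgi, and Rab3 and Rab27 in regulated exocytosis. B cells depend on the endocytic route to take up antigen and load peptides onto MHC class II. USF1 is a basic helix-loop-helix leucine zipper protein that binds the E-box CACGTG, a hexamer that MITF and TFE family factors, regulators of lysosomal genes, also read.

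A gene was called bound when the summit of a region lay within 1 kb of any of its annotated 5′ ends, either in the optimal list (mm10 build, 8108 regions that passed the authors' test of agreement between ranked lists) or in the mm9 list (10624 regions). The members were sorted by the best known site of action of each protein into 20 endolysosomal, 8 recycling, 23 secretory and 8 other genes. Signal is the authors' own value for each region. Its scale is not stated and differs between the builds, so signal is compared within a build only. The number of reads is unknown.

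The sequences below show the E-boxes at the USF1 summits of bound Rab genes, from the mm9 genome, forward strand, 5′ to 3′. Capitals mark CACGTG, and the copy nearest the summit is shown with 10 bases on each side.
Rab24, chr13:55423324-55423349: gacgcccggtCACGTGacgcgggcgc
Rab5a, chr17:53618454-53618479: ccggggatgtCACGTGacttcggccc
Rab21, chr10:114752662-114752687: cacccctcgtCACGTGaccgcggtgg
Rab31, chr17:66122025-66122050: cgctgtcggtCACGTGctgccggccg
Rab20, chr8:11477853-11477878: ctattccactCACGTGacttgcgcac
Rab9, chrX:162916615-162916640: aaagactggtCACGTGccaatttgga
Rab14, chr2:35039047-35039072: catgaaggagCACGTGtctgaggtgc

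The first 3 of these carry the strongest signals in the family. Rab17 had no CACGTG within 50 bp of its summit but held the CA-centred E-box CACATG, which reads CATGTG on the other strand, in 2 copies that face each other across 2 bases. Both are in capitals here.
Rab17, chr1:92866045-92866070: ccCACATGatCATGTGatcagctggg

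The remaining 4 members bound in mm9 had neither E-box within 50 bp of the summit on either strand. The strongest of them, Rab22a and Rab7, are shown with 14 bases on each side of the summit, and capitals mark any hexamer of the general E-box form CANNTG. Rab22a held CAGGTG and CAGCTG, and the Rab7 window held no CANNTG.
Rab22a, chr2:173485336-173485364: cggggaggtCAGGTGaccCAGCTGgcgtc
Rab7, chr6:87995257-87995285: cacgagacgcccgacgccagggttggagg

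Rab43, the weakest member of the mm9 list, and Rab5b are shown with 30 bases on each side of the summit. Rab5b had a CAGGTG copy centred 17.5 bp from the summit, and Rab43 had no CANNTG within 50 bp. Of all 1768 mm9 summits with neither E-box, 54.9% held a CANNTG and 33.5% a CAGGTG (or CACCTG, its other strand) in the same window.
Rab5b, chr10:128133622-128133682: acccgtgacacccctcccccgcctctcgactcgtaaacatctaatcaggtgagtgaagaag
Rab43, chr6:87760968-87761028: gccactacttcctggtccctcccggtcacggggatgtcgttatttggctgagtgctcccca

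USF1 was bound at 15 of the 59 Rab genes (25.4%, 95% Wilson interval 16.1 to 37.8), where 16.4% of all protein-coding genes were bound by the same rule. The interval includes that background share, near its lower end. By the optimal list alone 12 Rab genes were bound (20.3%, 12.0 to 32.3, against 12.5% of all genes). The conservative list, also thresholded by the authors and not a subset of the optimal one, gave 12 as well (against 11.7%), as did the mm9 list (against 15.9%). The interval for 12 of 59 genes includes the optimal and mm9 background shares, and the conservative one lies just below it. Bound in both the optimal and the mm9 list were 9 genes, and the share of all genes bound in both was not computed. Rab9, Rab14 and Rab43 were bound in the mm9 list alone, and Rab10, Rab19 and Rab33b in the optimal list alone. These intervals cover counting error only, and genes are not replicates.

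The bound genes were mostly endolysosomal. Of the 20 endolysosomal genes 10 were bound (50%, 29.9 to 70.1), and of the 23 secretory genes 4 were (17.4%, 6.98 to 37.1), close to the 16.4% of all genes. The difference was 32.6 percentage points (95% Newcombe interval 4.45 to 55.2). In the mm9 list it was 10 of 20 against 1 of 23, and in the optimal list 8 of 20 against 3 of 23. Of the 8 recycling genes only Rab17 was bound (12.5%, 2.24 to 47.1), and of the 8 other genes none was, which allows a share of up to 32.4%. The classes were written from general knowledge, and 3 other ways of drawing them gave an interval that includes 0: 21.9 points (-3.35 to 43.0) with the recycling genes counted as endolysosomal, 23.3 (-8.95 to 48.9) without the 8 genes of regulated exocytosis, none of them bound, and 27.1 (-0.97 to 51.2) without Rab14 and Rab24. Rab14 and Rab24, with Rab34, Rab36 and Rab2a, act in several routes, and without all of these the difference was 31.8 points (1.86 to 56.4). That list is not complete. Rab22a and Rab31, both bound, are described below with recycling routes and the trans-Golgi network, but stayed in the endolysosomal class there. The difference without them was not computed.

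**Figure D1:**
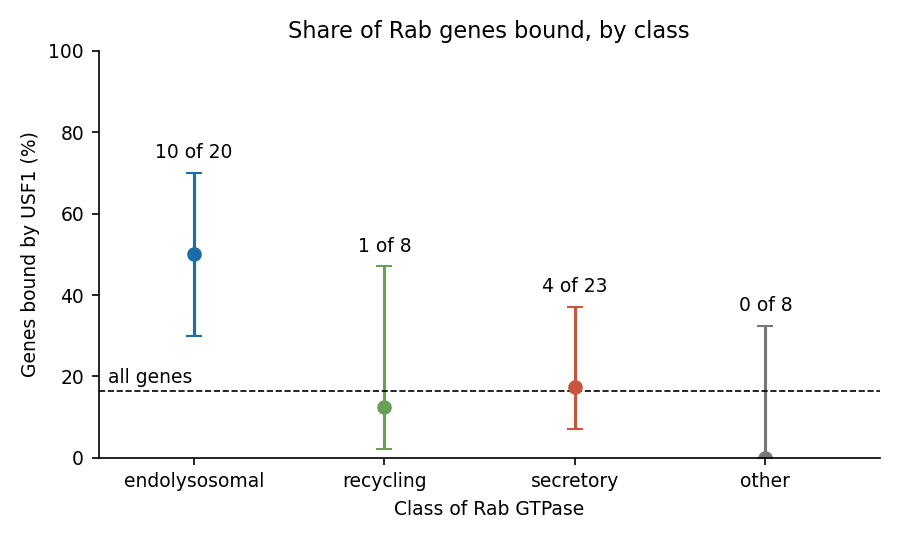
Percentage of Rab genes bound by USF1 (vertical axis) in each class, with 95% Wilson intervals as bars and the number bound above each bar. The dashed line is the share of all protein-coding genes (16.4%), and only the endolysosomal interval (29.9 to 70.1) lies wholly above it.

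Within the endolysosomal class 9 of the 10 bound genes were those of early endosomes, phagosomes, late endosomes and lysosomes, and the other was Rab24. Of the 6 early endosome genes 5 were bound: Rab5a, Rab5b, Rab21, Rab22a and Rab31, with Rab5c the exception. Both genes grouped as endosome and phagosome, Rab14 and Rab20, were bound, as were Rab7 and Rab9 among the 4 late endosome and lysosome genes. These groups together gave 9 of 12 (75.0%, 46.8 to 91.1), against 16.4% of all genes. Among the 8 genes of lysosome positioning, phagosomes, autophagy and lysosome-related organelles only Rab24 was bound (12.5%, 2.24 to 47.1), while Rab12, Rab29, Rab32, Rab34, Rab36, Rab38 and Rab39 were not. The interval for these 8 genes includes the 16.4% of all genes. The subgroups were drawn by hand with earlier results of these data known, and phagosome genes stand on both sides of this split. These subgroups are small and no test was made between them.

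Rab24, an atypical family member linked to autophagy, had the strongest mm9 signal of the family at 1897, rank 176 of 10624. Its summit (region chr13:55423181-55423493) lay 20 bp inside the first, untranslated exon, and 15.5 bp from the centre of the CACGTG copy. In mm10 its optimal signal was 462, with 226 in replicate 1 and 237 in replicate 2. The same summit lies within 1 kb of the start of Prelid1 on the opposite strand, so the region cannot be given to Rab24 alone.

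Rab5a, which drives fusion of early endosomes, followed with an mm9 signal of 1435 (chr17:53618214-53618621, 103 bp upstream of the start). Its optimal signal of 509 was the highest of any Rab gene, with 259 in replicate 1 and 251 in replicate 2. Rab21, an early endosome GTPase known for integrin traffic, had an mm9 signal of 1385 (chr10:114752532-114752815, 26 bp upstream of the start). Its optimal signal was 475, with 232 and 246 in replicates 1 and 2. In both replicates Rab24, Rab5a and Rab21 lay above every other Rab gene. In each replicate Rab5a was the highest of them and Rab24 the lowest, whereas in mm9 Rab24 was the highest.

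Rab22a, an early endosome GTPase of recycling routes, came next with an mm9 signal of 614 at 7 bp from its start (chr2:173485209-173485475). Its optimal signal was 336, with 142 and 195 in replicates 1 and 2. Rab7, the GTPase of late endosomes and lysosomes, had an mm9 signal of 508 at 7 bp upstream of its start (chr6:87995145-87995390). Its optimal signal was 301, with 117 and 186 in the replicates, a log2 ratio of 0.67 and the widest gap between replicates in the family. Neither promoter summit held CACGTG or the CA-centred E-box, as printed above. Over all bound genes with neither E-box the median mm9 signal was 50.5 (n = 975), and 44 of those 975 genes had a signal above that of Rab7.

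Rab31, which acts between the trans-Golgi network and endosomes, had an mm9 signal of 391 (chr17:66121916-66122169, 36 bp downstream of the start in the untranslated exon). Its optimal signal was 262, with 128 and 142 in the replicates. Rab20, a GTPase of phagosome maturation, had 2 mm9 summits within 1 kb, both with CACGTG. The stronger, at 209, lay in an intron 759 bp downstream of the start (chr8:11477779-11477967), and the weaker, at 131, lay 33 bp upstream of it. The optimal summit of Rab20, 764 bp downstream, had a signal of 171, with 76.0 and 94.98 in the replicates. Rab5b had a lower signal of 95.5 in mm9 at 328 bp upstream of its start (chr10:128133502-128133801), and 82.5 in the optimal list, with 36.0 and 41.9 in the replicates. Its region also lies within 1 kb of the start of Pmel on the opposite strand.

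Rab9 and Rab14 had the lowest endolysosomal signals and were bound in mm9 alone. Rab9, which returns mannose 6-phosphate receptors from late endosomes, had a signal of 50.6 in an intron 968 bp from the nearest start (chrX:162916460-162916759). In mm10 its nearest optimal summit, with a signal of 49.3, lay 1154 bp from an annotated end, just outside the limit. Rab14, which acts between the Golgi and endosomes, had a signal of 41.2 in an untranslated exon 522 bp downstream of a start (chr2:35038898-35039197), and its nearest optimal summit was 8002 bp away. In the relaxed list of both replicates the strongest region within 1 kb had a signal of 8.14 at Rab9 and 6.71 at Rab14.

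The bound recycling and secretory genes had weak signals. Rab17, a GTPase of epithelial recycling and transcytosis, had 61.7 in mm9 (chr1:92865910-92866209, 65 bp downstream of the start), 53.9 in the optimal list, and 29.1 and 23.6 in the replicates. Rab43, a Golgi GTPase, had 32.8 in an intron 774 bp downstream of its start (chr6:87760848-87761147), rank 9443 of 10624, with no optimal summit nearer than 61002 bp and a relaxed signal of 21.7. In mm10, Rab19, also placed at the Golgi, had an optimal signal of 54.5 at 734 bp upstream (chr6:39379825-39380124), with 23.6 and 29.5 in the replicates. A mm9 summit with a signal of 67.8 and the CA-centred E-box lay 1200 bp from its mm9 start, outside the limit.

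Rab33b, a Golgi GTPase that binds the autophagy protein Atg16l1, had an optimal signal of 34.5 at 87 bp downstream of its start (chr3:51483903-51484202). Its replicate values were 14.8 and 20.5, and no mm9 summit lay nearer than 67952 bp. Rab10, which moves vesicles from the Golgi to the plasma membrane, had the lowest optimal signal of the family, 27.0 at 56 bp upstream (chr12:3309875-3310174), with 14.2 and 12.4 in the replicates. It was absent from the conservative list. Thus no secretory gene was bound in both the optimal and the mm9 list. Of all genes 12.5% were bound in the optimal list and 15.9% in the mm9 list. The share bound in both was not computed, so this count has no background.

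Signal at the bound genes also differed between the classes. In mm10 the 8 endolysosomal genes had optimal signals of 82.5 to 509 (median 319), and the 3 secretory genes 27.0 to 54.5 (median 34.5). These ranges did not overlap, but the secretory one rests on 3 genes. Over all bound genes the median was 131 (n = 2681), and the share of them in either range was not computed. In replicate 1 the endolysosomal values ran from 36.0 to 259 and the secretory ones from 14.2 to 23.6. In replicate 2 they ran from 41.9 to 251 and from 12.4 to 29.5, so the classes did not overlap in either replicate among genes with an optimal summit. The optimal list was made from these replicates, so their values are not separate support. Rab19, Rab33b and Rab10 ranked 5269, 7392 and 8017 of the 8108 optimal regions. Rab9 and Rab14 have no optimal summit and are not in these ranges. Their relaxed signals, 8.14 and 6.71, were below every secretory optimal signal. In mm9 the endolysosomal median was 449 (n = 10), against 112 over all 3239 bound genes, but its lower end, Rab14 at 41.2, lay near Rab43 at 32.8, the only secretory value. The ratio of medians in mm9, 13.7, therefore rests on Rab43 alone. No p is given, because the genes were chosen as a family and are not replicates.

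**Figure D2:**
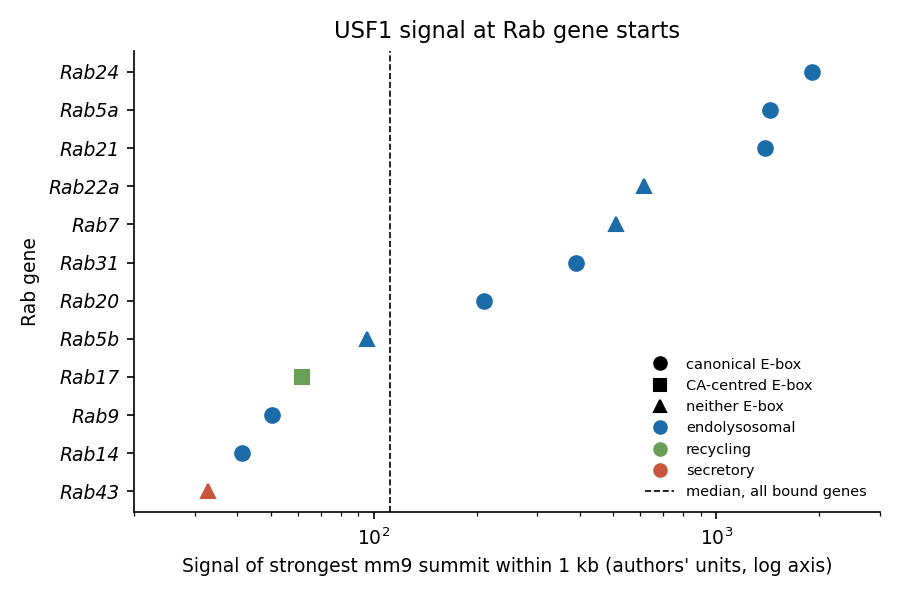
Signal of the strongest mm9 summit within 1 kb of a start (horizontal log axis, authors' units) for the 12 Rab genes bound in mm9, with colour for the class and marker shape for the E-box within 50 bp. The 7 strongest genes, from Rab20 at 209 to Rab24 at 1897, lie above the dashed median of all bound genes (112). All 7 are endolysosomal, as are 10 of the 12 genes shown.

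The replicates gave similar values at the Rab genes. Over the 12 genes with an optimal summit replicate 2 exceeded replicate 1 by a median of 0.19 on the log2 scale (SD 0.28), ranging from -0.30 at Rab17 to 0.67 at Rab7, and none differed by more than 2-fold. Over all bound genes with a value in both replicates the median was 0.15 (SD 0.42, n = 2660). The gap between Rab5b, the weakest endolysosomal gene of the optimal list, and Rab19, the strongest secretory one, was wider than the replicate difference at either gene: 36.0 against 23.6 in replicate 1 and 41.9 against 29.5 in replicate 2.

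**Figure D3:**
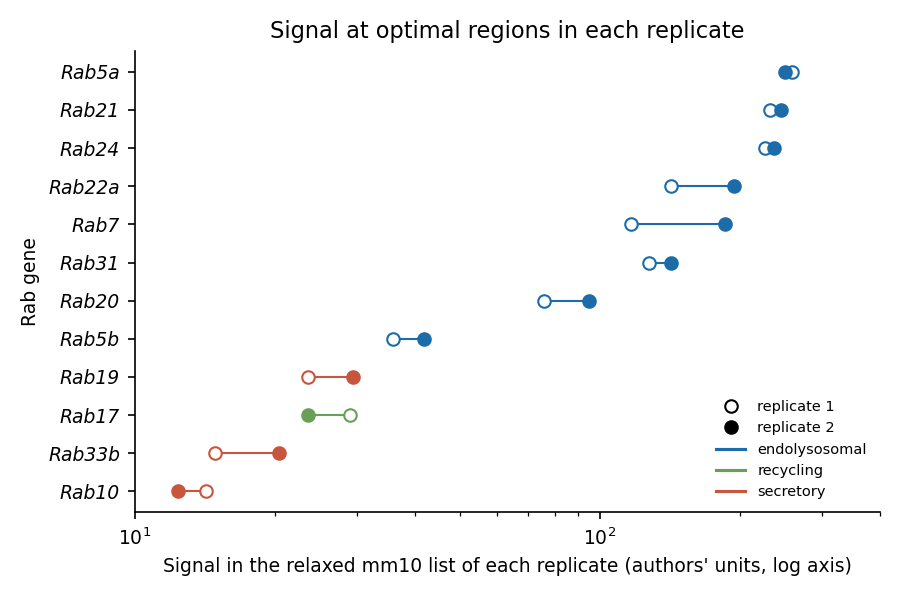
Signal in replicate 1 (open circles) and replicate 2 (filled circles) at the optimal region of each of 12 Rab genes, on a log axis in the authors' units, ordered by optimal signal and coloured by class. The endolysosomal genes shown lie at 36.0 or more in both replicates and the secretory genes shown at 29.5 or less. Rab9, Rab14 and Rab43, bound in mm9 alone, have no optimal region within 1 kb and are not shown.

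E-boxes were found at bound Rab genes in shares close to those of all bound genes. CACGTG lay within 50 bp of the summit in 7 of the 12 genes bound in mm9 (58.3%, 32.0 to 80.7), against 57.8% of all 3239 bound genes. The CA-centred E-box without CACGTG was found in 1 (8.33%, against 12.1%), and neither in 4 (33.3%, against 30.1%). All 7 CACGTG genes were endolysosomal, as were 10 of the 12 genes bound in mm9. Their median mm9 signal was 391, against 239 over all bound genes with CACGTG, and the 4 genes with neither had a median of 302, against 50.5. The hexamer's centre lay 1.5 bp from the summit at Rab21 and 18.5 bp from it at Rab31, the nearest and farthest of the 7. Summits lay a median of 84 bp from a start, against 99 bp over all bound genes.

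The bases beside the hexamer can be read from the printed sequences. At Rab24, Rab5a, Rab21 and Rab20 the site was TCACGTGA, at Rab31 and Rab9 GCACGTGA when read on the strand that gives it, and at Rab14 ACACGTGC read likewise. TCACGTGA was thus found at 4 of 7 Rab summits. Over all bound genes with CACGTG it was 19.4% of the copies nearest the summit (17.7 to 21.3, n = 1872). At the starts of unbound genes with CACGTG within 250 bp it was 4.31% (3.51 to 5.29, n = 2017). With 7 sites the Rab share is imprecise and was not tested.

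Some Rab genes with CACGTG near the start were unbound, and most bound ones had none there. The same held over all genes matched in mm9, where 1832 bound genes lacked it and 1651 had it. The hexamer lay within 250 bp of a start in 11 of the 59 genes (18.6%), against 18.03% of all genes, and in 7 endolysosomal and 2 secretory ones. Where it was present 5 of 11 Rab genes were bound (45.5%, 21.3 to 72.0), against 45.0% of all genes, and where it was absent 10 of 48 were (20.8%, 11.7 to 34.3), against 11.0%. The 6 unbound genes with the hexamer were Rab3a, Rab2b, Rab15, Rab23, Rab34 and Rab36. Rab3a, a GTPase of synaptic vesicles, is shown because its TCACGTGA, centred 10.5 bp from the start, matches the form at Rab5a, yet it had no region of any thresholded list within 1 kb. Rab34 had a copy 9.5 bp from its start flanked by G and C.
Rab3a, chr8:73279407-73279432: ctgtcttcgtCACGTGatgtggctat
Rab34, chr11:78003087-78003112: ggccgctttgCACGTGcgcaaagact
Rab2b, chr14:52888903-52888928: actgagagttCACGTGggtcaatgac

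CpG observed over expected, which is near 1 in CpG islands and low elsewhere, had a median of 0.74 in bound and 0.68 in unbound Rab genes, within 500 bp of the start. Over all genes it was 0.74 and 0.51. It was 0.74 in bound and 0.62 in unbound endolysosomal genes, and 0.82 and 0.68 in secretory ones. The classes had medians of 0.71 (endolysosomal), 0.70 (recycling), 0.74 (secretory) and 0.69 (other). Open chromatin and expression in these cells were not used here, and their part in the result was not tested.

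Genes that share a number fell into 14 families of 2 or more. In 10 of these all members were unbound, in 4 (Rab5, Rab7, Rab9 and Rab33) some members were bound, and in none were all bound. No such split was made for other gene families, so it has no background. Rab5a had a strong summit, Rab5b a weak one and Rab5c none in the thresholded lists, although Rab5c had relaxed regions (peaks and background before thresholding) of 8.50 and 9.76 in replicates 1 and 2. Rab7 was bound and Rab7b was not, with its nearest mm9 summit 63254 bp away. Rab9 was weakly bound and Rab9b was not. Rab33b was bound in mm10 and Rab33a was not in either build. Rab2a, which acts between the endoplasmic reticulum and the Golgi and in lysosome fusion, was unbound by the main rule but was in the conservative list, with relaxed signals of 14.9 and 15.2.

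The 44 unbound genes comprised, besides the 7 unbound autophagy, positioning and organelle genes above, Rab5c, Rab7b and Rab9b of the endosomal groups and the recycling genes Rab4a, Rab4b, Rab11a, Rab11b, Rab15, Rab25 and Rab35. In the secretory class these were all 4 genes of transport from the endoplasmic reticulum to the Golgi (Rab1a, Rab1b, Rab2a, Rab2b) and the Golgi genes Rab6a, Rab6b, Rab30 and Rab33a. The plasma membrane genes Rab8a, Rab8b and Rab13 and all 8 of regulated exocytosis (Rab3a, Rab3b, Rab3c, Rab3d, Rab26, Rab27a, Rab27b, Rab37) were unbound too. The other unbound genes were Rab18, Rab23, Rab28, Rab39b, Rab40b, Rab40c, Rab42 and Rab44. Of the 44, 10 had a relaxed region within 1 kb in both replicates and 23 had one in neither. The relaxed lists held 25978 regions in replicate 1 and 44551 in replicate 2. The same counts were not made over all unbound genes, so these have no background.

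The limit of 1 kb decided a few calls. Just inside it were Rab9 at 968 bp, Rab43 at 774 bp, Rab19 at 734 bp and Rab14 at 522 bp, which were the genes lost within 500 bp, where 11 were bound (against 14.4% of all genes). Rab20 kept its call there through its summit 33 bp from the start. Just outside was Rab1a, a GTPase of transport into the Golgi, with an intronic summit at 1252 bp in mm9 (chr11:20102771-20102959, signal 251, CA-centred E-box) and at 1450 bp in mm10 (signal 189). Within 5 kb Rab13, Rab15, Rab1a, Rab25, Rab34 and Rab3a were also counted, the total was 21 of 59 (against 22.1% of all genes), and the difference between the classes fell to 24.6 points (-4.58 to 48.8). Within 10 kb of a start 12 unbound genes had a thresholded summit, and no such count was made over all unbound genes.

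**Figure D4:**
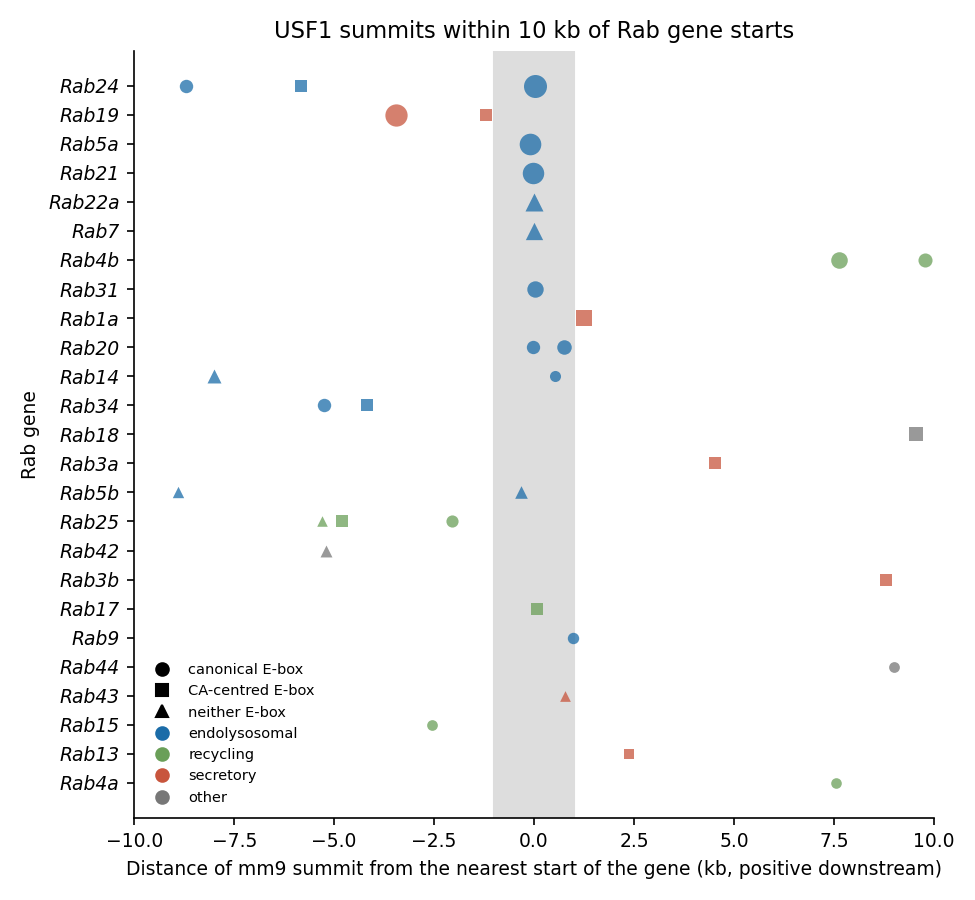
Distance of each mm9 summit from the nearest start of the Rab gene (horizontal axis, kb, positive downstream) for genes with a summit within 10 kb, ordered by strongest signal, with marker area rising with signal, colour for class and shape for E-box. The grey band is the limit of 1 kb, and the summits of Rab24, Rab5a, Rab21, Rab22a and Rab7 sit at the start while that of Rab1a lies just outside the band.

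Many genes that regulate or serve Rab proteins were bound. Of 98 such genes 37 were (37.8%, 28.8 to 47.6), against 16.4% of all genes, with an interval that overlaps that of the Rab genes. For these, the median mm9 signal of the 34 bound in mm9 was 301. Among them, GTPase-activating proteins were bound at 14 of 28 genes. Exchange factors were bound at 5 of 11 genes for endolysosomal and 5 of 14 for secretory or recycling Rabs, effectors at 4 of 15 and 6 of 22, and genes of prenylation and membrane delivery at 3 of 8. Endolysosomal exchange factors and effectors together gave 9 of 26 (34.6%) and the secretory or recycling ones 11 of 36 (30.6%). That difference was 4.06 points (-18.2 to 27.0). Dennd6a and Rab3gap2, both bound, stand in the second group although the Rab proteins they load, Rab14 and Rab18, are classed here as endolysosomal and other. With Dennd6a moved and both Rab3gap subunits left out the counts were 10 of 27 and 9 of 33, a difference of 9.76 points (-13.2 to 32.1). Either interval includes 0, and whether the contrast differs from that among the Rab genes was not tested.

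The 10 regulators with the strongest mm9 summits all held CACGTG within 50 bp. Over all bound genes the median signal was also higher with CACGTG (239) than with neither E-box (50.5). The share with CACGTG among equally strong summits of all genes was not computed. The strongest regulator was Tbc1d13 with 2783, one of the TBC family of GTPase-activating proteins, to which Tbc1d20 (1056) and Tbc1d5 (951) also belong. Hps1 (2233), a subunit of the exchange factor for Rab32 and Rab38, followed, although both of those Rab genes were unbound. Rabep1 (1814), the Rab5 effector Rabaptin-5, came next. Of the Rab5 genes, Rab5a was strongly bound (1435), Rab5b weakly (95.5) and Rab5c not. The others were Dennd6a (1237), an exchange factor for Rab14, the Rab11 effector Rab11fip1 (1071), the Rab18 exchange factor subunit Rab3gap2 (1070), the Rab6 exchange factor subunit Ric1 (1062) and Rab3il1 (726), an exchange factor for Rab8. CACGTG was found at 24 of the 34 (70.6%, 53.8 to 83.2), an interval that includes the 57.8% of all bound genes.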

How the data were processed

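USF1 ChIP-seq of CH12.LX cells was used as deposited region lists. Per the deposited readme files, the authors made relaxed lists for each replicate and for both together in mm10, optimal and conservative lists from these by IDR, and an mm9 list. Not given in the sources used here are caller, aligner and thresholds. Signal (column 7) is the authors' value as deposited, and the summit is the start plus column 10. A value per replicate is the strongest relaxed signal overlapping the optimal region. Starts in mm10 came from the RefSeq gene and promoter tables of GRCm38.p6 (48 of 59 members had a promoter entry, the others used the gene edge), and in mm9 from all Gencode vM1 transcripts. All 59 members matched, 5 through synonyms. Sequences came from NCBIM37 (mm9), searched on both strands. Coordinates are 1-based and none was converted. Python 3.11.15 with pandas 2.3.3, numpy 2.4.6 and pysam 0.24.0 was used, and the calls were tested on simulated data.

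Members, classes and lists were chosen with earlier results of these data known. Every bound and unbound member is named, as are the 10 regulators with the strongest mm9 summit. Windows of 61 bp had been planned for sequences and are printed for Rab5b and Rab43 only. The other sequences are shorter, whether or not an untranslated exon overlapped the planned window. The search for CANNTG and for TCACGTGA was added after the sequences were seen.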

Additional observations from a re-analysis of the deposited data

How the results depend on the processing

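The count of bound Rab genes was 11 to 21 under the other distances, lists and start rules, against 15, and leaving out either replicate (the strongest 8108 regions of the other) gave 12 each time. Leaving out replicate 2 lost Rab9, Rab10, Rab14, Rab33b and Rab43 and gained Rab4b and Rab8a; leaving out replicate 1 lost Rab9, Rab10, Rab14 and Rab43 and gained Rab1a. For regulators the count was 28 to 41, against 37. The endolysosomal share was higher than the secretory one under every alternative run, by 21.9 to 57.6 points. The highest, 57.6 (23.2 to 76.8), came without the lysosome positioning and lysosome-related organelle genes. The interval included 0 within 5 kb, with recycling genes counted as endolysosomal, without the genes of regulated exocytosis, and without Rab14 and Rab24. Leaving out Rab14 and Rab24, leaving out the genes listed above as acting in several routes, and the regrouping of Dennd6a and Rab3gap1 and Rab3gap2 were chosen after seeing the data. The ratio of median mm9 signals was 13.7, 3.91 within 5 kb, where more secretory genes enter, and 9.24 in mm10; within 500 bp no secretory gene was bound in mm9 and no value could be given. The CACGTG share was 58.3% in every window tried and 61.5% over every mm9 summit within 1 kb. No paired analysis was possible because there is 1 group. Read depth is unknown, so an unbound gene may only lie below the thresholds.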

Other observations

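Beyond 1 kb from a start, 38 mm9 summits lay inside or within 10 kb of 22 Rab genes, with a median signal of 67.7 (29.7 to 1638). CACGTG was found within 50 bp of 16 of them, the CA-centred E-box alone at 15 and neither at 7. The shares over all distal mm9 summits, and of all genes with such a summit, were not computed. The E-box shares of all bound genes given above are for summits near starts and are no background for these. Several of the strongest lay at the starts of neighbouring genes. The summit of 1638 near Rab19 was 20 bp from the start of Slc37a3, that of 454 near Rab13 was 17 bp from Jtb, and that of 413 near Rab4b was 20 bp from Egln2. Near Rab25 a summit of 79.6 lay 23 bp from the start of Lamtor2, and near Rab3a one of 144 lay 181 bp from Ifi30. Others of similar signal were 95 bp from Rpl23a (136.4, near Rab34), 70 bp from Mpv17l2 (99.98, near Rab3a) and 922 bp from Mxd3 (135.5, near Rab24).

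Rab37, a GTPase of regulated exocytosis with no summit at its start, held 5 intragenic summits with signals of 29.7 to 138. Those of 63.8 and 56.0 lay nearer the start of Cd300lf (1870 and 8157 bp) than any start of Rab37. Rab20 held further intragenic summits of 43.7 and 111.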
